A study of Mus musculus with 9 samples.

Results

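The cytosolic nucleic acid sensors described here are 8 genes: the RIG-I-like receptor genes Ddx58, Ifih1 and Dhx58, the sensor genes Zbp1 and Eif2ak2, the adaptor gene Mavs, and the kinase genes Tbk1 and Ikbke. They were chosen by symbol out of 55367 gene symbols counted in every library, and all 8 were present and passed the filter on low counts that left 13707 genes to test. Reads of mRNA were counted per gene for monocytes of adult mice, the blood cells from which many tissue macrophages derive, after 4 h with P7 platelets (3 libraries), with adult platelets (3 libraries) or with a control buffer (3 libraries). P7 commonly stands for postnatal day 7, an age of pups. The cells were rinsed after the incubation, ahead of RNA extraction. The labels give no strain, sex, genotype or age in weeks, and do not say whether replicates were separate cultures or animals or whether cells of several animals were pooled. The p-values therefore measure only the spread between these libraries, which can be technical.

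These proteins look for nucleic acid where it should not be. RIG-I (Ddx58) and MDA5 (Ifih1) bind double-stranded RNA in the cytosol and pass the signal through caspase recruitment domains to MAVS, an adaptor on the outer mitochondrial membrane, while LGP2 (Dhx58) binds RNA but lacks these domains and modulates the other two. ZBP1 recognises left-handed Z-form nucleic acid and can start necroptosis and inflammasome activity, and PKR (Eif2ak2) answers double-stranded RNA by phosphorylating eIF2 alpha, which slows translation. TBK1 and IKK epsilon (Ikbke) are related kinases that phosphorylate IRF3 and IRF7, the transcription factors that switch on type I interferon genes. Interferon in turn raises the transcription of several of these sensors through the factor ISGF3, which binds the interferon-stimulated response element (ISRE).

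The 8 genes lie apart from one another on 6 chromosomes, with 3 of them on chromosome 2 (GENCODE M21, GRCm38): Ddx58 on chromosome 4 at 40203773 to 40239828, Ifih1 on chromosome 2 at 62595798 to 62646255, Dhx58 on chromosome 11 at 100694884 to 100704271, Zbp1 on chromosome 2 at 173206612 to 173218923, Eif2ak2 on chromosome 17 at 78852564 to 78882573, Mavs on chromosome 2 at 131234063 to 131248025, Tbk1 on chromosome 10 at 121546455 to 121586787, and Ikbke on chromosome 1 at 131254343 to 131279606. Promoters from RefSeq (GRCm38.p6, 250 bases before to 50 after the transcript start) were at hand for 6 of the 8 members. They are shown for 3 genes that rose and carry an ISRE core and for Mavs, the member that fell. Capitals mark the ISRE core, GAAA followed by any 2 bases and GAAA, on either strand (read from the other strand, TTTC, any 2 bases and TTTC). Each sequence runs from 5′ to 3′ on the gene's strand.
Ddx58, chr4:40239776-40240075, minus strand: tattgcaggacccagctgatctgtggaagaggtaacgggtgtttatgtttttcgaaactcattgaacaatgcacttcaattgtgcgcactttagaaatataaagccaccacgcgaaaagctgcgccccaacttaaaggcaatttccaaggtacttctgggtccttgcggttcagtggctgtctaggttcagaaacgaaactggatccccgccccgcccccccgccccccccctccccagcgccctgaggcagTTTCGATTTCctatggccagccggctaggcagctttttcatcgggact
Ifih1, chr2:62646206-62646505, minus strand: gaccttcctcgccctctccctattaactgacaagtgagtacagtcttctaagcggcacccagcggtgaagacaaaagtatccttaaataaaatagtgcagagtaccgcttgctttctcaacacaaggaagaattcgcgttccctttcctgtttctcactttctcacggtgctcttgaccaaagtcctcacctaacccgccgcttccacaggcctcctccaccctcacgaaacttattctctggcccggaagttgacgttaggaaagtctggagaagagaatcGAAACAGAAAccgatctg
Eif2ak2, chr17:78882523-78882822, minus strand: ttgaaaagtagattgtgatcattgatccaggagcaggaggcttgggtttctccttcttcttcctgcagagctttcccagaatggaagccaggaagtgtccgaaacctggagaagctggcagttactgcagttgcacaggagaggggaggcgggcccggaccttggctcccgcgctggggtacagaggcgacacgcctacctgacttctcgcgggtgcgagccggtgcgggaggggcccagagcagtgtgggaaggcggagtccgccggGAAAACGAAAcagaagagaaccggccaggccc
Mavs, chr2:131233813-131234112, plus strand: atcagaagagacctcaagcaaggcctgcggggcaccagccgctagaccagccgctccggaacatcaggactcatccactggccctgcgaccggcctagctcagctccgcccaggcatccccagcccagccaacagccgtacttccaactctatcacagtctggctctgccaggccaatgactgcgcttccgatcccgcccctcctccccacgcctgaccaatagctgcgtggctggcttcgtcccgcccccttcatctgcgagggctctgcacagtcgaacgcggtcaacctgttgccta
The core began 2 bases after the annotated start in Ddx58, 32 bases after it in Ifih1 and 18 bases after it in Eif2ak2. It was absent from these windows of Mavs, Tbk1 and Ikbke. Of all 32851 RefSeq promoters of the same length, 3.44% held it. The STAT-binding pattern TTCNNNGAA, which reads the same on both strands, was found in Eif2ak2 alone of the 6, at 178 bases before the start, and in 8.30% of all promoters. The kappaB consensus, a site of NF-kB, was in none of the 6 windows and in 8.46% of all promoters. These matches describe the letters of the windows and no binding was measured.

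The libraries held 29687341 to 37065564 counted reads each, and the counts were turned into normalised CPM (CPM are counts in each 1e+06 of the library, here with library totals scaled by TMM factors) for the levels below. All 8 monocyte markers, among them Csf1r, Lyz2 and Ccr2, had counts in every library, with a summed level of 23900 to 29100 CPM of the unscaled total with P7 platelets, 26100 to 30500 with adult platelets and 24300 to 26800 in control. Lyz2 made up most of this sum (16330 to 21410 CPM with P7 platelets), and single monocyte markers moved both ways. With P7 platelets Ccr2 had 1364 to 1899 CPM and Itgam 178.5 to 221.4, below control (2388 to 2909 and 237.7 to 264.7). Csf1r had 2850 to 3156 CPM and Cd14 1240 to 1605, above control (2136 to 2246 and 844.8 to 998.8). Transcripts of other cells moved with the groups. Summed over 13 platelet markers the level was 1550 to 1810 CPM with P7 platelets, 950 to 1730 with adult platelets and 7.01 to 15.1 in control, where Gp1bb and Gp6 were at 0. Over 5 erythroid markers, globins and Alas2, it was 43600 to 55000, 481 to 1800 and 8.81 to 11.7 CPM in the same groups, and mitochondrially encoded transcripts made up 2.33 to 2.42%, 2.05 to 2.28% and 1.17 to 1.62% of counts. Single platelet markers differed between the platelet groups both ways, though their sums overlapped. Ppbp had 45.1 to 62.6 CPM with P7 platelets against 190 to 263 with adult platelets. Gp9 had 118 to 125 against 26.7 to 56.2 and Myl9 293 to 318 against 83.2 to 163, while Pf4 overlapped. As sums, the other lists overlapped between groups or were lower with P7 platelets, apart from T and NK cell markers, which were under 1 CPM throughout. They were 5 B and plasma cell markers (168 to 755, 154 to 947 and 160 to 827 CPM), 5 neutrophil markers (215 to 222, 233 to 469 and 232 to 255), 5 plasmacytoid dendritic cell markers (61.7 to 75.7, 63.2 to 93.4 and 86.6 to 96.9), 4 conventional dendritic cell markers (20.4 to 29.5, 28 to 46.3 and 37.2 to 43.9) and 5 T and NK cell markers (0.272 to 0.573, 0.129 to 0.437 and 0.110 to 0.255, with Ncr1 at 0 in the adult platelet and control libraries).

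With P7 platelets compared with control, 7 of the 8 members rose and Mavs fell. Of all tested genes 59.2% were called, 29.9% as higher and 29.3% as lower, so a call by itself was common. With upper-quartile in place of TMM factors 3279 genes were higher and 5012 lower, against 4097 and 4014. At least 2-fold higher were 6 of the 8 members, against 9.31% of all genes. In all 7 that rose every P7 platelet library was above every control library, which held for 34.5% of all genes, and in Mavs every one was below, which held for 34.7%. The median log2 fold change was 1.89 over the 8 members and -0.01 over all tested genes. Calls rest on edgeR's quasi-likelihood test, with p-values adjusted over all 13707 genes by the Benjamini-Hochberg method and a limit of 0.05. Every adjusted p below comes from that test unless another is named.

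Among the RIG-I-like receptors Ddx58 changed most. Ddx58 had 68.9, 98.9 and 108 normalised CPM in the P7 platelet libraries, 11.5, 12.2 and 12.2 in the adult platelet libraries and 12, 11.3 and 12.9 in control. The P7 platelet libraries stood far above both other groups, which overlapped. Its log2 fold change with P7 platelets against control was 2.93 ± 0.15 (SE; 7.62-fold, adjusted p = 1.10e-06), and 2.74% of all genes had a larger one. Ifih1 had 69.4, 98.6 and 106 normalised CPM with P7 platelets, 16.0, 21.0 and 13.7 with adult platelets and 19.0, 16.8 and 19.7 in control (2.31 ± 0.19 against control, adjusted p = 9.37e-06). Dhx58 had 42.6, 50.8 and 59.4 with P7 platelets, 13.6, 11.9 and 12.5 with adult platelets and 16.2, 13.5 and 14.0 in control (1.81 ± 0.12, adjusted p = 3.63e-06). For both genes the lowest P7 platelet library was above every library of the other groups. Reads of Dhx58 can overlap those of Dhx58os on the opposite strand, which shares 4.31% of its exon bases, and the strand setting of the counting is not given in the sources used here.

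The sensors outside the receptor family rose as well. Zbp1 had 41.7, 54.3 and 61.1 normalised CPM with P7 platelets, 8.59, 9.15 and 7.21 with adult platelets and 14.6, 11.2 and 14.0 in control. The 3 groups did not overlap for Zbp1, with control between the others, and its log2 fold change with P7 platelets against control was 1.98 ± 0.15 (adjusted p = 7.86e-06). Eif2ak2, the PKR gene, had 81.5, 107 and 116 normalised CPM with P7 platelets, 26, 30.9 and 26.2 with adult platelets and 35.2, 32.5 and 35.3 in control. These groups kept the same order as those of Zbp1, again without overlap, and the log2 fold change was 1.56 ± 0.12 (adjusted p = 8.58e-06).

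Mavs, the adaptor of both signalling receptors, went the other way. It had 17.8, 15.2 and 16.7 normalised CPM with P7 platelets, 19.4, 19.3 and 20.3 with adult platelets and 26.6, 25.3 and 25.1 in control. All 3 groups were separate, the P7 platelet libraries lowest and control highest, and Mavs fell by 0.63 ± 0.07 on the log2 scale with P7 platelets against control (adjusted p = 4.04e-05). Of all genes, 16.1% had a lower fold change. In bulk libraries fewer cells that carry a transcript and less of it per cell cannot be told apart.

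The kinase genes differed in size of change. Ikbke had 538, 614 and 616 normalised CPM with P7 platelets, 215, 272 and 117 with adult platelets and 170, 120 and 136 in control. The P7 platelet libraries were above all others. Adult platelet replicates 1 and 2 were above every control library and replicate 3 was below every one. Its log2 fold change against control was 2.05 ± 0.27 (adjusted p = 0.000143). Tbk1 had 128, 139 and 140 normalised CPM with P7 platelets, 112, 125 and 108 with adult platelets and 110, 107 and 111 in control, and rose by 0.31 ± 0.06 (adjusted p = 0.00209). The P7 platelet libraries lay above all others for Tbk1 too, by a small margin.

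**Figure D1:**
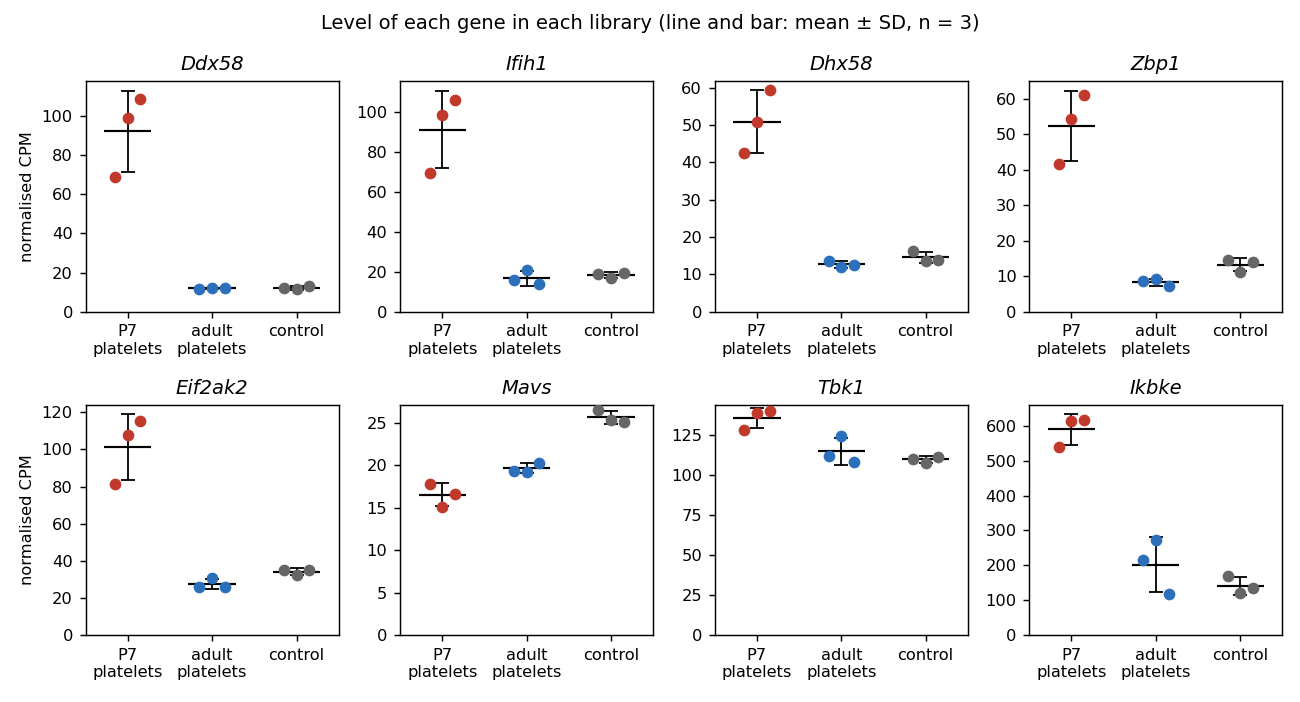
Normalised CPM (vertical axis from 0) of the 8 genes in each of the 9 libraries, by group (horizontal axis); points are libraries, lines and bars the mean ± SD (n = 3). The P7 platelet libraries lie above both other groups for 7 genes and below them for Mavs (15.2 to 17.8 against 25.1 to 26.6 in control).

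In every one of the 7 rising genes P7 platelet replicate 1 was the lowest of the 3 P7 platelet libraries, and it was the highest for Mavs. This library also held the most Igkc, an immunoglobulin transcript of B and plasma cells, at 606 CPM of the unscaled total against 172 and 135 in the other 2. Igkc was not its only difference. Its marker sums were the highest of the 3 for erythroid (55030 against 43550 and 49020 CPM), platelet (1814 against 1553 and 1585) and monocyte lists (29100 against 26620 and 23910). For both dendritic cell lists its sums were the lowest of the 3. Igkc ran apart from the groups, at 410 to 772 CPM in 4 libraries (P7 platelet replicate 1, adult platelet replicates 1 and 3 and control replicate 1). With a term for those libraries, added after the data were seen, all 8 members stayed called with P7 platelets against control. The platelet and erythroid transcripts given above also moved with the groups. With platelet, erythroid and mitochondrial transcripts taken out of the counts all 8 members were still called in this comparison. That step leaves the members' own counts unchanged and can act only through library scaling and the shared fit. Any effect of the cells themselves was not tested. Adult platelet libraries, with 950 to 1730 CPM of platelet markers, had 11.5 to 12.2 CPM of Ddx58, against 11.3 to 12.9 in control. They held 481 to 1800 CPM of erythroid markers, against 43600 to 55000 with P7 platelets, so the platelet groups were not alike in such transcripts. What these transcripts bear on the members was not tested.

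Adult platelets against control put the same question to platelets of grown mice, a comparison that shares its control libraries with the one above. Here 2 members fell, Zbp1 and Mavs, and none was called higher. Zbp1 fell by 0.67 ± 0.16 on the log2 scale (adjusted p = 0.0150) and Mavs by 0.39 ± 0.07 (adjusted p = 0.00301). Of all tested genes 26.4% were called, 12.0% as lower and 14.3% as higher. At an unadjusted p below 0.05 edgeR gave 3 lower members, Eif2ak2 beside those 2, and 0 higher. The share of all genes at that looser limit was not counted, so these 2 counts cannot be weighed against other genes. The DESeq2 Wald test and limma-voom each also called 2 lower and 0 higher members. Over all genes the DESeq2 Wald test called 1728 lower and 2075 higher, and limma-voom 1812 lower and 1934 higher. Zbp1 no longer passed once control replicate 3 was left out (adjusted p = 0.0529).

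For the members that did not pass with adult platelets, the 95% intervals of the log2 fold change ran from -0.36 to 0.34 for Ddx58, from -0.55 to 0.29 for Ifih1, from -0.48 to 0.09 for Dhx58, from -0.59 to -0.03 for Eif2ak2, from -0.07 to 0.20 for Tbk1 and from -0.07 to 1.08 for Ikbke. Each interval lay below the change estimated for the same gene with P7 platelets. Eif2ak2 (-0.31 ± 0.12, adjusted p = 0.0987) was lower in all 3 adult platelet libraries than in any control library, as were Zbp1 and Mavs, which makes 3 of 8 members against 20.9% of all genes; the reverse, every adult platelet library above every control library, held for none of the members and for 21.8% of all genes. Without P7 platelet replicate 1 in the fit Eif2ak2 passed (adjusted p = 0.0198). Ikbke spread most within the adult platelet group, and without adult platelet replicate 3 it passed as higher (0.78 ± 0.15, adjusted p = 0.00795).

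Compared directly, P7 platelets against adult platelets gave 7 members higher and Mavs lower, where 39.6% of all genes were called, 19.7% as higher and 19.8% as lower (2106 and 3556 genes with upper-quartile factors, against 2706 and 2718). The libraries of the 2 groups did not overlap for any of the 8, which held for 24.2% of all genes in the higher and 24.8% in the lower direction. At least 2-fold higher were 6 of the 8, against 5.51% of all genes. The log2 fold changes were 2.94 ± 0.15 for Ddx58, 2.65 ± 0.16 for Zbp1, 2.43 ± 0.19 for Ifih1, 2.0 ± 0.12 for Dhx58, 1.87 ± 0.13 for Eif2ak2 and 1.55 ± 0.26 for Ikbke (adjusted p = 5.80e-06 to 0.00163). Tbk1 was higher by 0.24 ± 0.06 (adjusted p = 0.0126) and Mavs fell by 0.25 ± 0.07 (adjusted p = 0.0165). Mavs did not pass without P7 platelet replicate 2 (adjusted p = 0.0633) or adult platelet replicate 3 (adjusted p = 0.0525). Tbk1 did not pass without P7 platelet replicate 2 (adjusted p = 0.0515) or 3 (adjusted p = 0.0542).

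**Figure D2:**
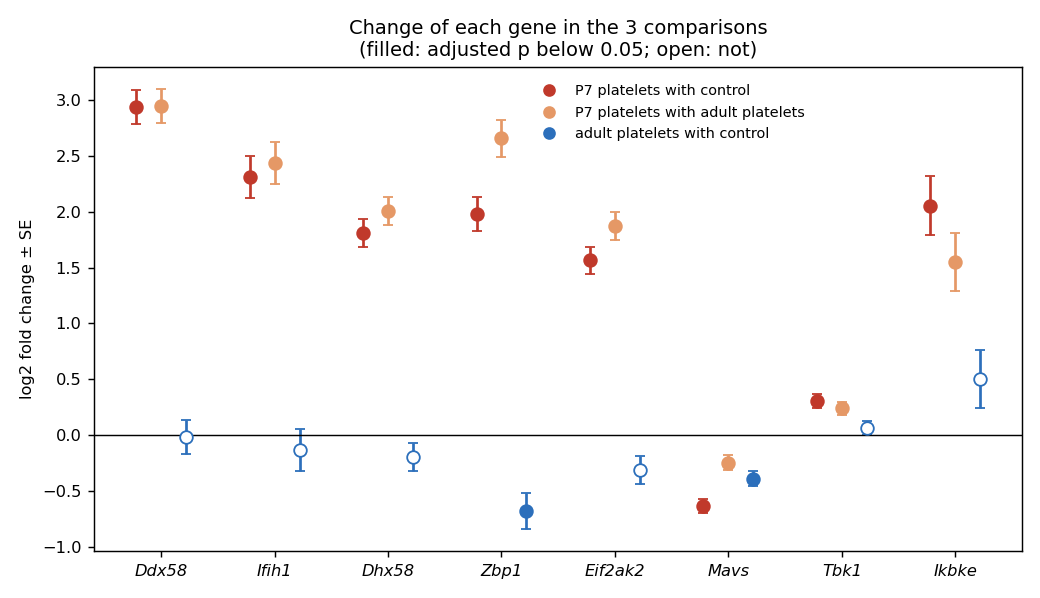
Log2 fold change ± SE (vertical axis) of the 8 genes (horizontal axis) in the 3 comparisons; filled points passed an adjusted p below 0.05 and open points did not. Values with P7 platelets run from -0.63 (Mavs) to 2.93 (Ddx58) against control, and those with adult platelets from -0.67 (Zbp1) to 0.51 (Ikbke).

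Levels of different genes were compared per kilobase of exon. With P7 platelets Ikbke stood first at 65.4 normalised CPM per kb, Tbk1 second at 34.7 and Mavs last at 4.95, while Eif2ak2 (19.9), Dhx58 (15.6), Zbp1 (14.8), Ddx58 (13.1) and Ifih1 (11.2) lay between them, each overlapping its neighbour in that order. With adult platelets the order was Tbk1 (29.4), Ikbke (22.4), Mavs (5.87), Eif2ak2 (5.42), Dhx58 (3.88), Zbp1 (2.36), Ifih1 (2.07) and Ddx58 (1.70), in which Tbk1 overlapped Ikbke, Mavs overlapped Eif2ak2, and Ifih1 overlapped both Zbp1 and Ddx58. In control it was Tbk1 (28.1), Ikbke (15.8), Mavs (7.67), Eif2ak2 (6.72), Dhx58 (4.44), Zbp1 (3.76), Ifih1 (2.26) and Ddx58 (1.71), and only Dhx58 and Zbp1 overlapped. By mean level per kb Ddx58 was thus the scarcest member in control and, overlapping Ifih1, with adult platelets, and Mavs with P7 platelets. Exon lengths are those of GENCODE M21 and count all annotated exons, so levels per kb depend on which isoforms are expressed.

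The make-up within a library does not depend on how libraries were scaled. Of the reads per kb of both kinases, Ikbke made up 64.5, 65.8 and 65.6% with P7 platelets, 45.5, 48.7 and 32.0% with adult platelets and 40.1, 32.7 and 34.6% in control. Per kb Ikbke was above Tbk1 in the P7 platelet libraries alone, but this rests on the exon lengths of 9018 bases for Ikbke and 3910 for Tbk1. On read counts Ikbke held 80.8 to 81.6% with P7 platelets, 52.0 to 68.6% with adult platelets and 52.8 to 60.7% in control, more than Tbk1 in all 9 libraries. The share was higher by 29.5 percentage points with P7 platelets than in control and by 23.3 than with adult platelets, with no overlap in either case (p = 0.1 for each in an exact permutation test, two-sided, the smallest that 3 against 3 libraries can give). With adult platelets it differed from control by 6.28 points (exact permutation p = 0.4). Among the 3 receptors the share of Ddx58 averaged 32.7% ± 1.27 with P7 platelets, 22.2% ± 1.45 with adult platelets and 20.4% ± 1.32 in control (SD, n = 3 each). That of Dhx58 averaged 39.3% ± 2.17, 50.8% ± 4.38 and 52.7% ± 2.51, and that of Ifih1 28.1% ± 0.922, 26.9% ± 4.87 and 26.9% ± 1.28 in the same groups. The receptors that signal through MAVS, Ddx58 and Ifih1 together, had 3.43, 5.76 and 5.70 times the reads per kb of Mavs with P7 platelets, 0.621, 0.748 and 0.560 times with adult platelets and 0.506, 0.484 and 0.566 times in control. This ratio was added after the values were seen. Every P7 platelet library was above all others, and the adult platelet and control libraries overlapped. Whether it exceeds 1 depends on the exon lengths: on read counts it was 7.75 to 13.0 with P7 platelets, 1.27 to 1.73 with adult platelets and 1.11 to 1.3 in control.

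**Figure D3:**
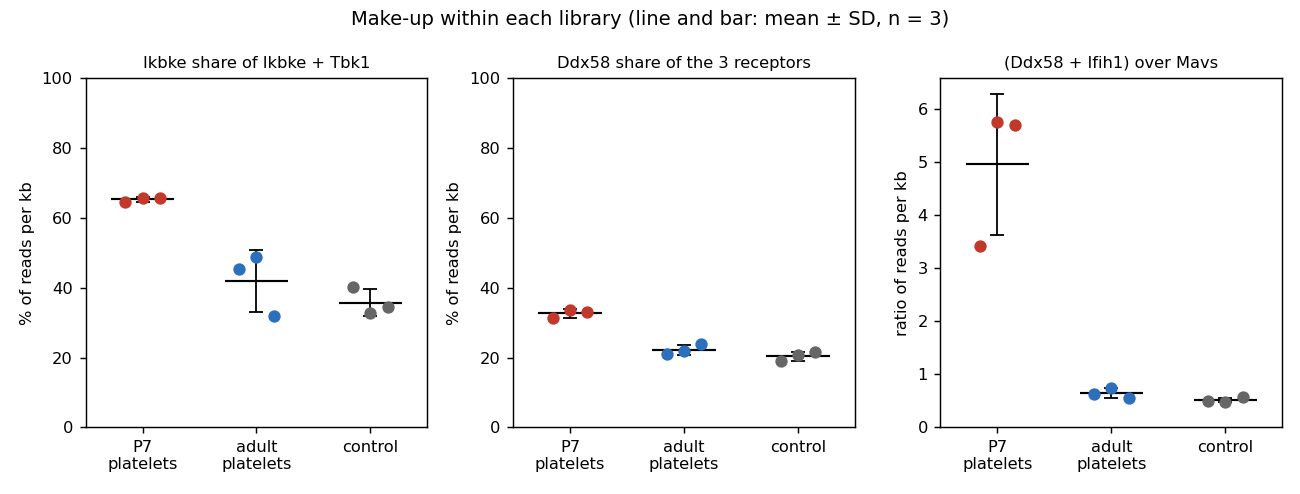
Make-up within each library: the share of Ikbke in reads per kb of Ikbke and Tbk1 (left), the share of Ddx58 among the 3 RIG-I-like receptors (middle), and the ratio of Ddx58 plus Ifih1 to Mavs (right), by group on the horizontal axis; points are libraries, lines and bars the mean ± SD (n = 3). The P7 platelet libraries lie at 64.5 to 65.8% for Ikbke and at 3.43 to 5.76 for the ratio, above every other library.

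The proteins around the sensors were followed in 6 lists with 66 genes, of which 57 were tested. With P7 platelets against control 18 rose and 18 fell (median log2 fold change 0.04), with adult platelets against control 6 rose and 7 fell, and with P7 against adult platelets 18 rose and 11 fell. In the first comparison each direction held 31.6% of the genes tested, near the share in all genes (29.9% higher and 29.3% lower). For P7 against adult platelets the shares were 31.6% higher and 19.3% lower, against 19.7% and 19.8% of all genes, and for adult platelets against control 10.5% higher and 12.3% lower, against 14.3% and 12.0%. The counts of each list below stand against these same shares of all genes. Leaving out single libraries gave 32 to 37 calls in the first comparison. Genes named below are, for each list, up to 3 that rose and 3 that fell with the smallest p in that first comparison, with mean normalised CPM for P7 platelets, adult platelets and control in that order.

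TBK1 and IKK epsilon are held on scaffold proteins, and of 10 genes of that platform 6 rose and 1 fell with P7 platelets against control (median log2 fold change 0.50). Of all genes 29.9% were called higher and 29.3% lower in that comparison. Optn, the ubiquitin-binding adaptor optineurin, averaged 35.4, 18.4 and 12.8 CPM (1.46 ± 0.11 against control, adjusted p = 7.63e-06), and Tank, a TRAF-binding scaffold of the kinases, averaged 320, 169 and 147 (1.12 ± 0.15). Traf2 averaged 61.5, 46.6 and 41.7 (0.56 ± 0.07). Tbkbp1, another scaffold of TBK1, fell, with 61.8, 80.1 and 122 CPM (-0.98 ± 0.05, adjusted p = 1.12e-06). With adult platelets against control 2 of the 10, Traf3 and Optn, rose and 1, Tbkbp1, fell, and Traf3 did not pass without control replicate 1 or 2 (adjusted p = 0.0521 and 0.0825). With P7 against adult platelets 6 rose and 1 fell.

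Of 14 regulators of the RIG-I-like receptors, 3 rose and 7 fell with P7 platelets against control (median -0.08). Zc3hav1, the zinc finger antiviral protein, averaged 280, 211 and 209 CPM (0.43 ± 0.06), Rnf135, the ubiquitin ligase Riplet that activates RIG-I, 16.6, 13.1 and 11.8 (0.49 ± 0.10), and Marchf5, a mitochondrial ubiquitin ligase, 90.2, 60.5 and 56.5 (0.68 ± 0.06). Trim65, a ubiquitin ligase that acts on MDA5, fell and averaged 9.47, 14.1 and 24.9 (-1.39 ± 0.07, adjusted p = 1.25e-06). The ligase genes Rnf125 and Rnf122 fell as well at low levels, with 0.522, 1.06 and 1.32 CPM and with 0.548, 0.934 and 1.38 CPM. Nlrx1 was called lower too (-0.14 ± 0.05, adjusted p = 0.0263). It did not pass without P7 platelet replicate 2 or 3 or control replicate 1 or 3 (adjusted p = 0.0718 to 0.0958). Nor did it pass with no filter on low counts (adjusted p = 0.0839) or in the DESeq2 Wald test (adjusted p = 0.0727). With adult platelets against control 3 of the 14, Trim25, Trim65 and Itch, fell and the other 11 did not pass. These 3 fell with P7 platelets against control as well. Trim25 averaged 213, 194 and 423 CPM (-0.99 ± 0.21 with P7 platelets, adjusted p = 0.00261) and Itch 192, 184 and 230 (-0.26 ± 0.07, adjusted p = 0.0107). With P7 against adult platelets 3 rose and 2 fell.

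On the cytosolic DNA route the sensor and its adaptor moved apart. Cgas, the enzyme that makes the messenger cGAMP from DNA, rose to 46.6 CPM with P7 platelets, against 24.6 with adult platelets and 23.3 in control (1.0 ± 0.14, adjusted p = 0.000236). Sting1, the receptor of cGAMP, fell to 59.6 CPM, against 75.5 and 92.0 (-0.63 ± 0.11, adjusted p = 0.00121). Of 10 tested genes of this list 2 rose and 4 fell with P7 platelets against control (median -0.19). Those that fell included Rnaseh2a, an RNase H subunit gene (18.8, 23.3 and 27.2 CPM, -0.53 ± 0.07), and Slc19a1, a folate and cyclic dinucleotide carrier (2.28, 3.15 and 4.47 CPM, -0.97 ± 0.17). Dnase2a was called lower as well (-0.26 ± 0.09, adjusted p = 0.0291). It did not pass without P7 platelet replicate 2 or 3 or any 1 of the control libraries (adjusted p = 0.0566 to 0.11). The second riser, Rnaseh2b (48.3, 51.7 and 44.8 CPM, 0.11 ± 0.04, adjusted p = 0.0404), was not called when any 1 of the P7 platelet or control libraries was left out (adjusted p = 0.05 to 0.149), nor with upper-quartile scaling (adjusted p = 0.874). With adult platelets against control 1 rose and 1 fell, and with P7 against adult platelets 1 rose and 3 fell. The fall with adult platelets was that of Rnaseh2a (-0.22 ± 0.07, adjusted p = 0.0351). It did not pass without adult platelet replicate 1 or 2 or any 1 of the control libraries (adjusted p = 0.0569 to 0.112). Of those lower with P7 against adult platelets, Sting1 (adjusted p = 0.0407) and Dnase2a (adjusted p = 0.0455) overlapped between the groups. There Sting1 did not pass without P7 platelet replicate 1 or 3, adult platelet replicate 2 or 3 or control replicate 2 or 3 (adjusted p = 0.0566 to 0.138). Dnase2a did not pass without P7 platelet replicate 2 or 3, adult platelet replicate 1 or 3 or any control library (adjusted p = 0.0591 to 0.159). Trex1, a DNA exonuclease gene, and Slc46a2 were listed at 0 in all 9 libraries. All 1147 exon bases of Trex1 lie within exons of Atrip on the same strand, so that its reads cannot be assigned to one gene, and its 0 says nothing of its level.

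Among 12 partners of PKR and of eIF2, 3 rose and 3 fell with P7 platelets against control (median 0.05). Eif2s1, which encodes eIF2 alpha, averaged 131, 98.7 and 69.6 CPM (0.91 ± 0.05, adjusted p = 1.25e-06), Ppp1r15a, the stress-induced GADD34 subunit of its phosphatase, 70.6, 35.5 and 34.2 (1.04 ± 0.08), and Adar, which edits double-stranded RNA, 216, 112 and 112 (0.94 ± 0.08). Of the other 3 eIF2 alpha kinases 2 fell, Eif2ak3 (PERK) with 42.4, 57.8 and 76.0 CPM (-0.84 ± 0.08) and Eif2ak4 (GCN2) with 12.3, 14.6 and 17.6 (-0.52 ± 0.08), as did Prkra, the PKR activator PACT, with 9.07, 13.6 and 16.1 (-0.82 ± 0.09). Eif2ak1, the haem-regulated kinase, averaged 158, 161 and 165 CPM (-0.07 ± 0.04) and did not pass (adjusted p = 0.178), except with upper-quartile factors (adjusted p = 0.00502). With adult platelets against control 1 rose and 2 fell, and with P7 against adult platelets 4 rose and 3 fell. Eif2ak4 was among those lower with adult platelets (-0.27 ± 0.08, adjusted p = 0.0371). It did not pass there without adult platelet replicate 1 or 2 or any 1 of the control libraries (adjusted p = 0.0595 to 0.114). With P7 against adult platelets Eif2ak4 was called lower (adjusted p = 0.0447) and Dnajc3 higher (adjusted p = 0.0415). Eif2ak4 lost this call without P7 or adult platelet replicate 2 or 3 or any control library (adjusted p = 0.0577 to 0.146). Dnajc3 lost it without P7 platelet replicate 2 or 3, adult platelet replicate 1 or 3 or any control library (adjusted p = 0.0525 to 0.153). Upper-quartile factors gave Dnajc3 an adjusted p of 0.245.

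Of 7 partners of ZBP1 in cell death, 1 rose and 3 fell with P7 platelets against control (median -0.13). Cflar, the inhibitor c-FLIP of caspase 8, averaged 495, 280 and 254 CPM (0.96 ± 0.14, adjusted p = 0.000260). Ripk1 averaged 113, 122 and 129 (-0.20 ± 0.05), Casp6 19.0, 20.3 and 23.8 (-0.33 ± 0.08) and Mlkl, the executor of necroptosis, 15.6, 19.5 and 18.1 (-0.21 ± 0.07, adjusted p = 0.0275). Mlkl did not pass without any 1 of the P7 platelet libraries or control replicates 1 and 2 (adjusted p = 0.0528 to 0.0985), nor with the DESeq2 Wald test (adjusted p = 0.0585). With adult platelets against control 1, Casp8, rose, though not without control replicate 2 (adjusted p = 0.0523). With P7 against adult platelets 1 rose and 2 fell.

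Downstream of the kinases, 3 of 4 tested genes (Irf7, Irf5 and Ifnb1) rose with P7 platelets against control, and Irf3 did not pass. Irf7 averaged 150 CPM with P7 platelets, against 21.9 with adult platelets and 26.5 in control (2.5 ± 0.17 against control, adjusted p = 4.47e-06), Irf5 735 against 629 and 538 (0.45 ± 0.06), and Irf3 79.4 against 80.1 and 75.6 (0.07 ± 0.06, adjusted p = 0.340). Ifnb1, the interferon beta gene, had 12, 23 and 29 counts in the P7 platelet libraries, 0, 4 and 0 with adult platelets and 0, 1 and 0 in control. The P7 platelet libraries were above all others (adjusted p = 0.000615 against control), and per library total their counts were 70.9 times those of control (95% counting interval 12.3 to 2850) and 15.9 times those of adult platelets (5.91 to 60.1). Ifna1, Ifna2, Ifna4, Ifna5, Ifna13, Ifnl2 and Ifnl3 had 0 counts in every library, and a 0 allows up to 3 counts in each. Ifna genes are near-identical, and how reads matching several genes were counted is not given in the sources used here.

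**Figure D4:**
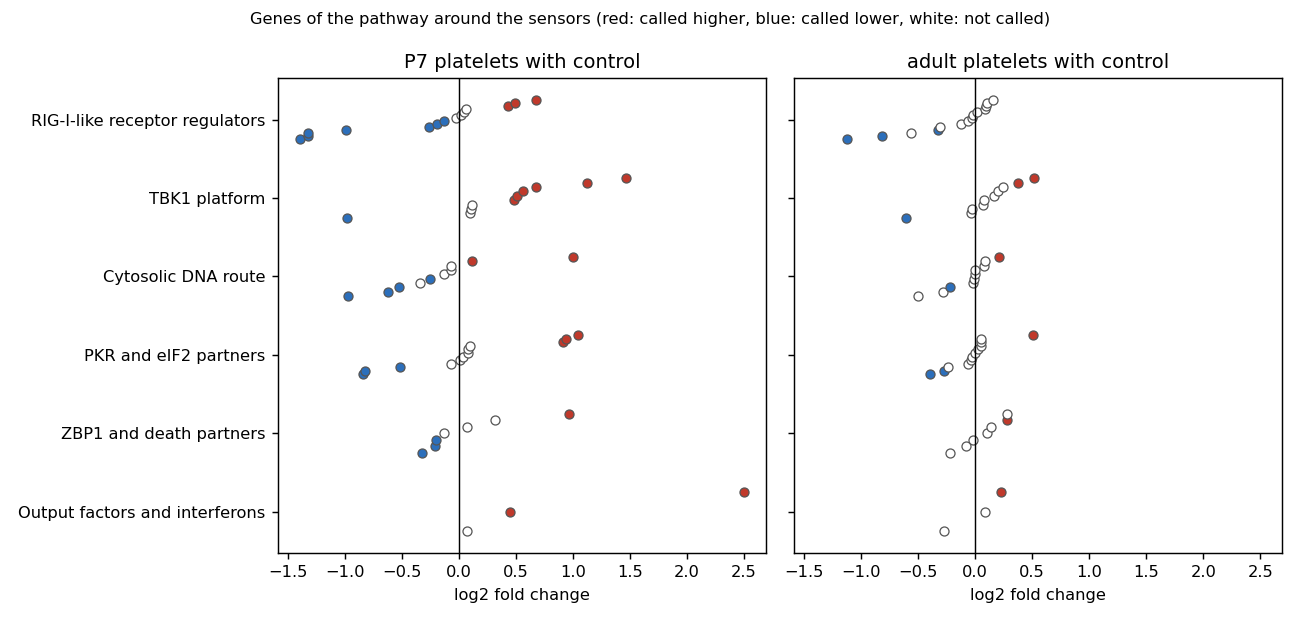
Log2 fold changes (horizontal axis) of the tested genes of the 6 pathway lists (vertical axis), with P7 platelets against control (left) and adult platelets against control (right); each point is a gene, red called higher, blue called lower, white not called, Ifnb1 left out for its few counts. The left panel holds 17 red and 18 blue points, the right 6 red and 7 blue.

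The genes whose levels over the 9 libraries ran closest to each member were found by the root mean square difference in log2 CPM after centring each gene on its own mean, among 9208 candidates. For Ddx58 these were Irgm1 (0.145 log2 units) and Xaf1 (0.15), for Ifih1 Parp14 (0.0858) and Trim30d (0.15), for Dhx58 Slfn1 (0.124) and Trim30a (0.153), for Zbp1 Cmpk2 (0.223) and Oas3 (0.235), and for Eif2ak2 Dtx3l (0.0908) and Trim30a (0.0924). Calcrl (0.104) was among the closest to Ikbke. Tbk1 ran closest to Csnk1g3 (0.0233) and Ddx42 (0.0255), and Mavs to Aars2 (0.0416) and Cyp4v3 (0.0481). A small distance is easy to reach for genes that change little, such as Tbk1. Among the members Dhx58 and Eif2ak2 ran closest to each other (0.160) and Ddx58 and Mavs were farthest apart (1.60).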

How the data were processed

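Per the labels' protocols, RNA was extracted with Trizol, 600 ng per sample was treated with DNase, and 100 ng went into stranded oligo-dT mRNA libraries read as 75 nt single ends. Salmon 1.3.0, featureCounts, Subread 2.0.1, STAR 2.7.6a and fastp 0.20.1 are named in the submitters' processing notes with no role stated. Which build, annotation and strand setting were used is not given in the sources used here. Each deposited table holds raw, unnormalised counts per gene symbol for 1 library.

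Counts of all 9 libraries were fitted with edgeR 4.0.16 (R 4.3.3; quasi-likelihood test, 1 mean per group, TMM, filterByExpr with minimum count 10, 6 residual degrees of freedom, Benjamini-Hochberg adjustment over 13707 genes). The common biological coefficient of variation was 0.114. Alternatives used DESeq2 1.42.0, limma 3.58.1 (voom) and other scalings and filters. Log2 distances used a prior count of 2 and genes with a mean log2 CPM of at least 2. Counting intervals are exact, at 95%, and cover counting error only. Replicate numbers in the titles were not treated as pairs.

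The members, lists and rules were chosen with earlier results of these data known. Named genes are all members, up to 3 higher and 3 lower genes per list by smallest p with P7 platelets against control, and the 2 genes nearest to each member, of which 1 is not reported here. The genes Traf3, Trim25, Itch, Nlrx1, Dnase2a, Dnajc3, Eif2ak1, Casp8 and Irf3, and those next to the members, were named after their values were seen. So were the cell type markers given with their own levels.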

Additional observations from a re-analysis of the deposited data

How the results depend on the processing

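With P7 platelets against control all 8 members were called, 7 higher and 1 lower, under each of 19 alternatives (DESeq2 size factors, upper-quartile factors, no filter, a mean of at least 50 counts, the DESeq2 Wald test, limma-voom, the replicate block, a fit to just the compared pair of groups, a fit lacking mitochondrial, erythroid and platelet transcripts, the Igkc term, and each library left out). With P7 against adult platelets 6 to 8 were called as single libraries were left out, and 8 under every other alternative. With adult platelets against control the count was 1 to 3 as libraries were left out, while the pathway genes called ranged from 8 to 15 (13 in the fit to all libraries) and all genes called from 2031 to 3774 (3617). Both low ends of those counts came without control replicate 2, and without control replicate 3 the 2 counts of members and all genes were 1 and 2207. Over 456 refits of 24 member results, 444 kept direction and side of the threshold, 5 lost and 3 gained a call, and 4 changed sign. Those 4 were uncalled changes near 0 with adult platelets against control: Ddx58 at 0.068 with the Igkc term, 0.012 without adult platelet replicate 1 and 0.037 without control replicate 3 (from -0.057 to 0.037 as libraries were left out), and Ifih1 at 0.0051 without adult platelet replicate 3 (-0.31 to 0.0051); the cause was not tested. Eif2ak2 passed in the fit to only the 2 groups (adjusted p = 0.0350). Upper-quartile factors moved the median log2 fold change of all genes with P7 platelets against control to -0.12, against -0.01 with TMM, and the split of calls to 3279 higher and 5012 lower, against 4097 and 4014. With P7 against adult platelets that split was 2106 and 3556, against 2706 and 2718. The share of Ikbke differed by 25.1, 6.02 and 19.1 points on read counts in place of reads per kb, and by 28 to 31.7, 2.96 to 11.3 and 18.2 to 26.6 as libraries were left out (P7 platelets with control, adult platelets with control, P7 with adult platelets). Libraries with the same replicate number shared deviations unevenly (correlations -0.081 to 0.576 over 9 pairs, and -0.558 to 0.428 over 18 pairs of other numbers), so the numbers were not taken as pairs. With the replicate block the members called were 8, 2 and 8 and the genes called 8565, 4228 and 5965 in the same order.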

Other observations

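The nearest tested protein-coding gene on each side of each member, 16 genes in all, was added after the data were seen. With P7 platelets against control 8 of these rose and 7 fell, where 29.9% of all genes were called higher and 29.3% lower. For adult platelets against control 2 rose and 3 fell (14.3% and 12.0% of all genes), and with P7 against adult platelets 4 rose and 5 fell (19.7% and 19.8%). Kat2a, a histone acetyltransferase gene 474 bases from Dhx58, fell with P7 platelets (-0.72 ± 0.08, adjusted p = 6.16e-05 in edgeR's test) where Dhx58 rose by 1.81 ± 0.12. Xpot, a tRNA export factor gene 592 bases from Tbk1, rose by 0.37 ± 0.06, close to the 0.31 ± 0.06 of Tbk1. Gca, the grancalcin gene 18029 bases from Ifih1, rose by 2.88 ± 0.32 next to 2.31 ± 0.19 for Ifih1. Pmepa1, 5534 bases from Zbp1, rose with adult platelets (1.96 ± 0.20) where Zbp1 fell by 0.67 ± 0.16 on the log2 scale. With P7 platelets against control both rose, Pmepa1 by 1.37 ± 0.20 and Zbp1 by 1.98 ± 0.15. Both neighbours of Mavs fell with P7 platelets as Mavs did, Ap5s1 by 0.64 ± 0.12 and Pank2 by 0.28 ± 0.05 on the log2 scale.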
